A study of Homo sapiens with 12 samples.

Results

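Human stromal cells labelled HS were added to leukemia cells labelled Reh during cytarabine treatment, and the resulting transcriptome was set against that of leukemia cells given cytarabine without stroma. Reh is a long-established culture of leukemic B-cell precursors, and cytarabine (Ara-C) is a cytosine nucleoside analog that is incorporated into DNA and stalls replication. The arrays were chosen by their labels: 3 arrays of Reh with Ara-C and HS stroma against 3 arrays of Reh with Ara-C alone, 6 of the 12 arrays in the series. The other 6 arrays serve here only as points of reference: 3 hold Reh with Ara-C and stroma labelled HS5, and 3 hold untreated Reh cells. Every Ara-C group was harvested after 48 h of drug. The labels describe HS stroma no further than as human, whereas HS-5 is an established human marrow stromal line. No dose is given, no group had stroma without Ara-C, and the labels do not say whether leukemia cells were parted from stroma before RNA was made. The study asked whether Wnt signalling contributes to the protection that marrow stroma gives leukemia cells.

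Each array was an Illumina HumanHT-12 v3 BeadChip carrying 48800 probes, of which 13064 to 14898 were detected above the array's negative controls (detection p under 0.01). Levels below are log2 intensities after background correction and quantile normalization, so a difference of 1 is a change of 2-fold, and levels are compared only within a probe. Across 11166 genes, each read by 1 probe, arrays with HS correlated with each other at 0.992 to 0.993 and with the Ara-C arrays at 0.966 to 0.971. The 12 arrays shared 1 chip on which the 3 arrays of a group were neighbours, and a position effect therefore cannot be told apart from a group effect. The markers went partly against the label: CD79A, CD79B, DNTT and RAG1 of B-cell precursors were detected on all 12 arrays, whereas PAX5, CD22 and VPREB1 were detected on 0 of 12. All 10 listed markers of granulocyte precursors, among them MPO, were detected. The samples are therefore called the cells labelled Reh. Of 44 listed markers of stromal fibroblasts, 27 were detected on no array, COL1A1, COL1A2, COL3A1, FN1, DCN, CXCL12 and IL6 among them.

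In the marrow, B-cell precursors divide and rearrange their receptor genes in contact with stroma, which supplies interleukin 7, CXCL12 and adhesion ligands. Early steps are directed by EBF1, FOXO1 and IKZF1, and the recombinases RAG1 and RAG2 together with the terminal transferase DNTT assemble the receptor. Stroma is also known to shelter leukemia cells from chemotherapy through soluble factors and through contact. In drug-damaged cells, p53 and nucleic-acid sensing are known to switch on death, arrest and interferon genes.

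Of 11166 genes tested with limma, 4699 differed between Ara-C with HS and Ara-C alone at an adjusted p under 0.05, which is 42.1% of the genes. Of these, 2408 were higher with HS (21.6%) and 2291 were lower (20.5%), and the arrays of the 2 groups did not overlap for 52.3% of all genes. Most of these differences were small: 543 genes (4.86%) differed at least 2-fold, 249 higher and 294 lower, and the median absolute difference over all genes was 0.27 on the log2 scale. The split between higher and lower depended on the scaling. With a common median in place of quantile normalization, 1580 genes were higher and 2409 were lower. Against so wide a background, a list of genes is read below by how far its counts lie from 21.6% higher and 20.5% lower, not by whether it holds called genes.

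**Figure D1:**
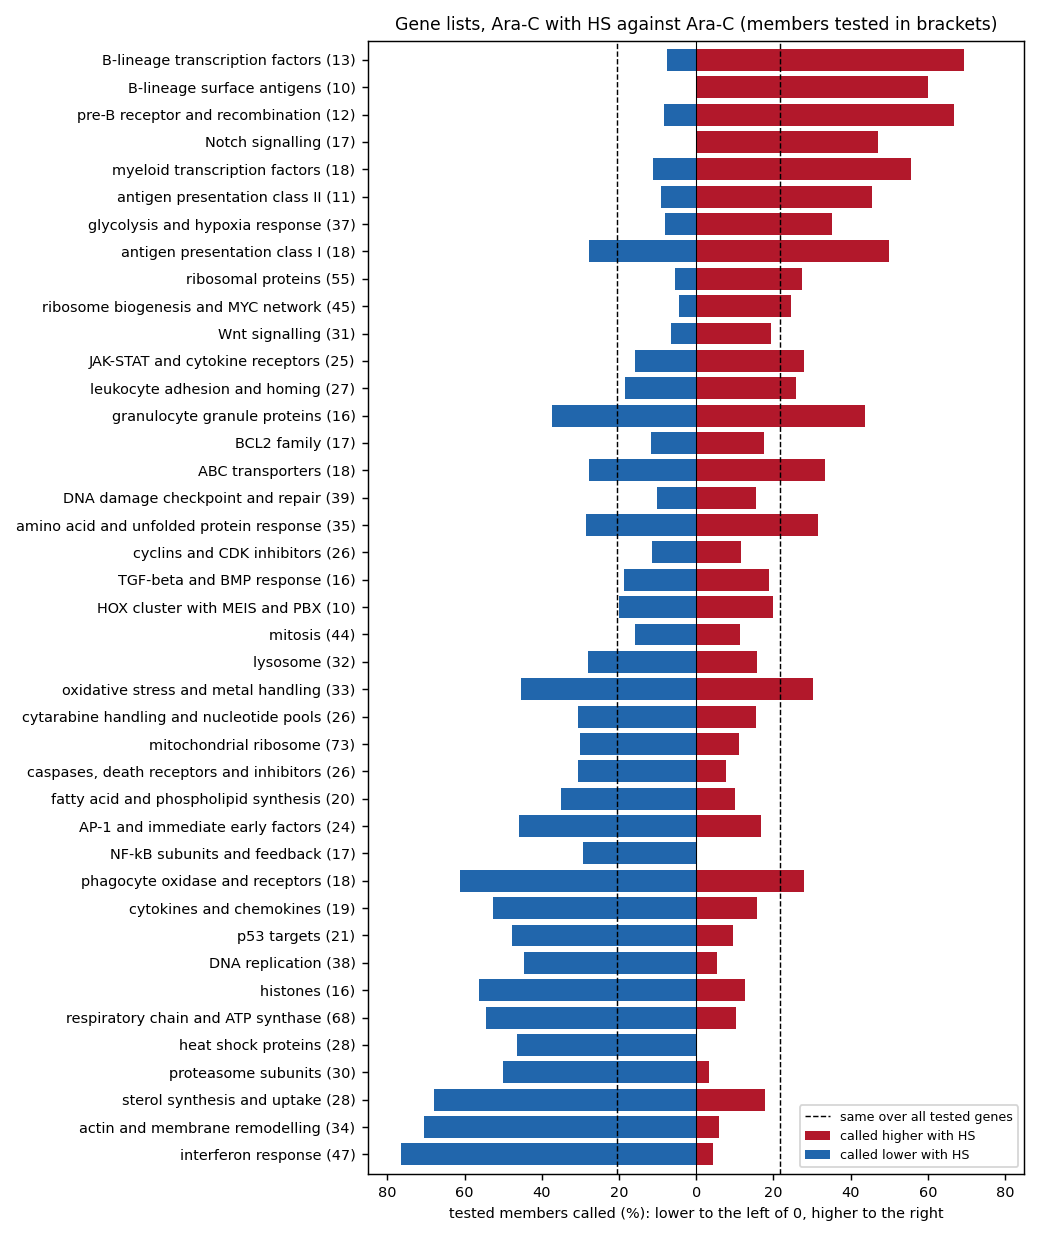
Percent of the tested members of each of 41 gene lists called higher (right) or lower (left) in Ara-C with HS than in Ara-C alone, with the 2 dashed lines at the share over all genes tested, 21.6% higher and 20.5% lower. Of interferon response genes 36 of 47 were lower, and of B-lineage transcription factors 9 of 13 were higher.

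Genes of the early B lineage were mostly higher with HS. Of 12 tested genes of the pre-B receptor and recombination, 8 were higher and 1 was lower, with a median difference of 0.52. Of 13 B-lineage transcription factors, 9 were higher and 1 was lower. Of 10 surface antigens, 6 were higher and none was lower, although with a common median 1 of the 10 was called lower. RAG1, the recombinase subunit, read 8.33, 8.06 and 8.09 with HS, against 6.38, 6.17 and 6.54 with Ara-C alone. It thus rose 3.47-fold (log2 difference 1.80, SE 0.12, limma adjusted p = 1.81e-07), to the level of the untreated cells, where it read 7.99, 8.24 and 8.11. VPREB3, which assists assembly of the pre-B receptor, read 8.74, 8.73 and 8.93 with HS, against 5.92, 6.0 and 5.83 with Ara-C alone, and was above its untreated values of 7.78, 7.65 and 7.61. No array with HS overlapped an Ara-C array for either gene.

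The factors that direct the lineage moved by less. EBF1, which specifies B-cell fate, read 6.97, 6.82 and 6.79 with HS and 6.02, 5.79 and 5.70 with Ara-C alone, a rise of 2.03-fold (limma adjusted p = 0.000102), and stayed under its untreated values of 7.65, 7.52 and 7.03. FOXO1, which activates the RAG genes, was higher by 1.15, and MYB, a regulator of progenitor growth, by 0.78. JAK-STAT signalling and cytokine receptor genes showed no common direction, with 7 of 25 tested higher and 4 lower and a median of -0.01. The share called, 44%, was near the 42.1% over all genes. Among the 7 were the receptor and the transducer for interleukin 7. IL7R read 9.0, 9.06 and 9.34 with HS, against 8.33, 7.98 and 7.79 with Ara-C alone (2.14-fold, limma adjusted p = 3.37e-05). STAT5B, which carries the IL7R signal to the nucleus, read 9.17, 8.95 and 9.16 with HS and 8.06, 7.99 and 7.81 with Ara-C alone (2.20-fold, adjusted p = 3.20e-06). For IL7R and STAT5B the HS arrays lay above every Ara-C array and did not differ from untreated cells at this threshold, with adjusted p of 0.729 and 0.206 in the same limma fit. The exception among the factors was IRF8, which acts in both B-cell and monocyte development. It fell to 6.52, 6.43 and 6.33 with HS, against 7.50, 7.53 and 7.44 with Ara-C alone, and was detected on no untreated array.

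Among surface proteins, CD38, an enzyme that consumes NAD and marks precursors and activated cells, showed a tight change. It read 9.79, 9.79 and 9.73 with HS, against 7.92, 8.29 and 8.14 with Ara-C alone, a rise of 3.14-fold (SE 0.11 on the log2 scale, limma adjusted p = 2.26e-07). CD37, a tetraspanin of B cells, read 8.46, 8.37 and 8.49 with HS and 6.79, 7.23 and 6.87 with Ara-C alone (2.79-fold, adjusted p = 1.53e-05). Unlike RAG1, both lay near the Ara-C level in untreated cells, where CD38 read 8.03, 7.72 and 7.89 and CD37 read 7.35, 6.83 and 6.90. CD24 rose by 1.03 and CD79A by 0.52. CD79B, the partner of CD79A, read 10.77, 10.92 and 10.84 with HS and 10.94, 11.10 and 11.08 with Ara-C alone, and did not pass the test (adjusted p = 0.107). The kinase SYK, which signals from the pre-B receptor, rose by 0.68 and BTK by 0.49, while LYN fell by 0.46. Over the 9 tested of 12 listed precursor markers, the summed linear intensity per array was 5928 to 6070 with HS and 3749 to 3917 with Ara-C alone. In RNA from a whole culture, a different number of cells of a type and a different amount of RNA per cell cannot be told apart.

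**Figure D2:**
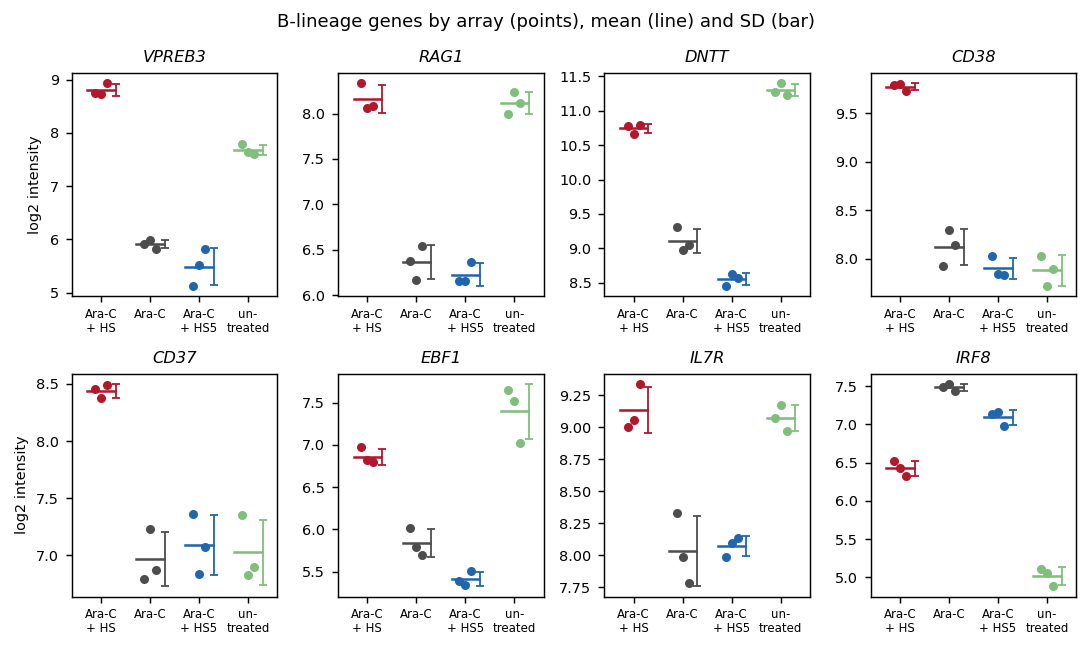
Log2 intensity on each array for 8 genes of the B lineage, with Ara-C with HS, Ara-C, Ara-C with HS5 and untreated cells from left to right; points are arrays, the line is the mean and the bar is the SD of 3 arrays. RAG1 and IL7R with HS lie at the untreated level, CD38 and CD37 above all other groups, and IRF8 between untreated and Ara-C.

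Myeloid genes moved in both directions. Of 18 myeloid transcription factors, 10 were higher with HS and 2 were lower. Of 16 granule proteins, 7 were higher and 6 lower, and of 18 genes of the phagocyte oxidase and receptors, 5 were higher and 11 lower. The receptor for the granulocyte growth factor G-CSF led the rises. CSF3R read 12.25, 12.22 and 12.29 with HS, against 10.51, 10.48 and 10.06 with Ara-C alone (3.74-fold, SE 0.12 on the log2 scale, limma adjusted p = 1.18e-07), and its second probe rose by 1.5. PRTN3, the primary granule protease proteinase 3, read 10.45, 10.77 and 10.27 with HS and 9.05, 9.04 and 8.89 with Ara-C alone (2.83-fold, adjusted p = 6.55e-07). CEBPE, the factor for late granulocyte maturation, read 8.94, 9.16 and 9.11 with HS and 7.90, 8.03 and 7.83 with Ara-C alone (2.22-fold, adjusted p = 4.50e-06). All 3 genes stood above untreated cells too. CEBPD rose by 1.04, CEBPB by 0.97, the granule serpin SERPINB1 by 1.09 and SPI1, the factor PU.1, by 0.78. DEFA4, a granule defensin, was detected on all 3 HS arrays and no Ara-C array and was at least 2.24-fold higher. MPO, the granule peroxidase, averaged 15.04 ± 0.05 with HS and 14.98 ± 0.07 with Ara-C alone (SD, n = 3 arrays each), and the limma adjusted p was 0.640.

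Among the falls were 2 neutrophil granule genes. MMP9, the gelatinase of granulocyte granules, read 7.95, 8.57 and 8.06 with HS, against 12.11, 11.91 and 12.19 with Ara-C alone (14.7-fold lower, SE 0.16 on the log2 scale, limma adjusted p = 2.53e-09). CAMP, the antimicrobial cathelicidin, read 5.67, 5.43 and 5.54 with HS, 1 of the 3 arrays being above the detection threshold, and 9.01, 9.21 and 9.16 with Ara-C alone (a fall of 3.58 on the log2 scale, adjusted p = 9.95e-11). For both genes the HS arrays lay far below every Ara-C array and below the untreated arrays too. CAMP was near the detection limit in untreated cells as well, where 2 of 3 arrays detected it. Other falls were of eosinophil granule, monocyte and Fc receptor genes. RNASE2, the eosinophil-derived neurotoxin, averaged 10.41 ± 0.15 with HS, against 12.24 ± 0.21 with Ara-C alone (SD, n = 3 arrays each, 3.54-fold lower, limma adjusted p = 3.75e-07). RNASE3, its close homologue, read 7.45, 7.56 and 7.35 with HS and 9.39, 9.45 and 9.38 with Ara-C alone (3.88-fold lower, adjusted p = 2.56e-09). Both were also lower than in untreated cells, RNASE2 by 2.01-fold and RNASE3 by 2.41-fold. FCER1G, the signalling chain shared by Fc receptors, read 9.08, 9.35 and 8.37 with HS and 10.32, 10.15 and 10.22 with Ara-C alone, a fall of 1.29 on the log2 scale with a wide spread among the HS arrays. Its partner in function TYROBP fell by 0.77, and CYBB, the catalytic subunit of the oxidase, by 0.99. KLF4, a factor of monocyte maturation, was detected on no HS array and was at least 2.3-fold lower. The integrin chain ITGAX ran the other way. It read 8.31, 8.61 and 8.48 with HS and 7.07, 6.97 and 7.0 with Ara-C alone (2.73-fold higher, adjusted p = 7.28e-05), and it was detected on no untreated array. Of 13 monocyte and macrophage markers, 9 were tested, 7 of them called lower and 1 higher. Summed over these 9, the linear intensity per array was 3690 to 4329 with HS and 5123 to 5605 with Ara-C alone. Over 10 granulocyte precursor markers it was 49441 to 52836 with HS and 43066 to 47231 with Ara-C alone. The part of monocytes or granulocyte precursors in the result was not tested.

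**Figure D3:**
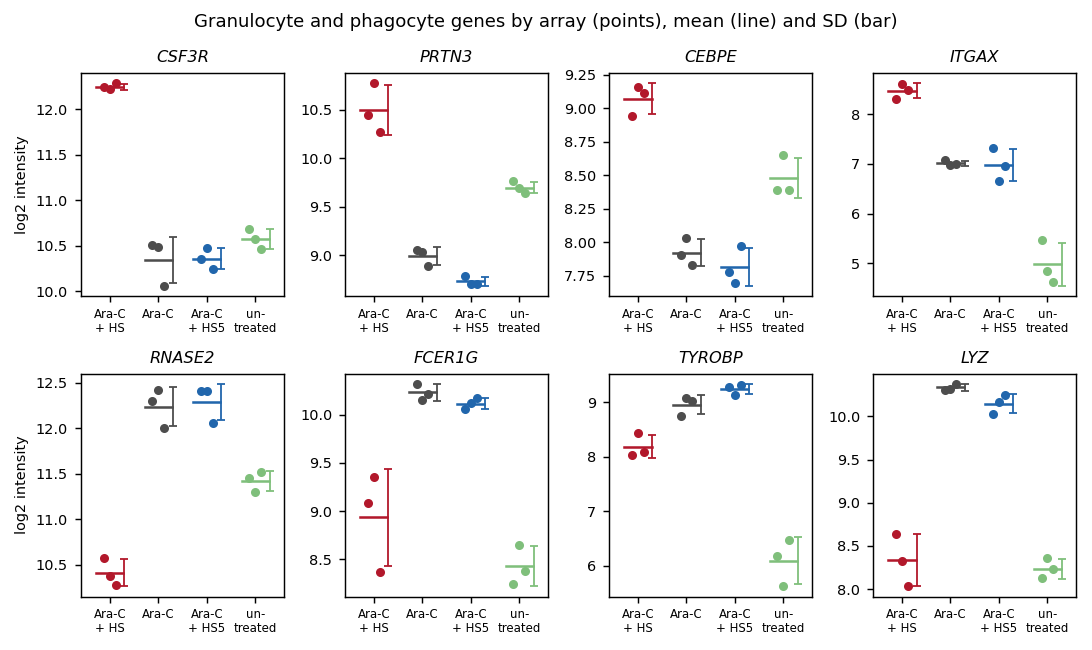
Log2 intensity on each array for 8 myeloid genes, with Ara-C with HS, Ara-C, Ara-C with HS5 and untreated cells from left to right; points are arrays, the line is the mean and the bar is the SD of 3 arrays. CSF3R, PRTN3 and CEBPE are highest with HS, whereas RNASE2 is lowest with HS and FCER1G, TYROBP and LYZ lie below both other Ara-C groups.

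Of 47 tested interferon response genes, 36 were lower with HS and 2 were higher, the largest share of lower calls among the 41 lists plotted above, which leave out the marker lists. The list had a median difference of -0.91, or -0.86 with undetected genes at their bound. With a common median 36 were called lower and none higher. ISG15, an interferon-induced ubiquitin-like modifier, read 7.62, 6.67 and 7.09 with HS, against 9.20, 8.95 and 9.17 with Ara-C alone (3.94-fold lower, limma adjusted p = 1.72e-05). OAS3, a synthase that activates RNase L, read 6.43, 6.30 and 6.20 with HS and 8.36, 8.50 and 7.92 with Ara-C alone (3.86-fold lower, adjusted p = 8.31e-07). A factor that carries the signal fell as well. IRF9, the DNA-binding part of the ISGF3 complex, read 8.29, 8.48 and 8.28 with HS and 9.68, 9.77 and 9.88 with Ara-C alone (2.69-fold lower, adjusted p = 3.64e-05). ISG15 and IRF9 with HS differed from untreated cells by -0.12 and 0.26 on the log2 scale, neither of which passed the test, while OAS3 was detected on no untreated array. The 2 higher genes were IRF1, by 0.42, and MX2, by 0.34.

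Class I antigen presentation, a pathway that interferon also induces, did not follow. Of 18 tested members, 9 were higher with HS and 5 were lower, with a median difference of 0.42. HLA-B, a class I heavy chain that presents peptides to T cells, read 9.84, 9.83 and 9.87 with HS, against 8.52, 8.51 and 8.59 with Ara-C alone (2.47-fold higher, limma adjusted p = 4.82e-05). Class I genes are close in sequence, so their probes may share targets. HLA-F rose by 1.12 over Ara-C arrays that spread between 6.01 and 7.24. The peptide transporter subunit TAP2 rose by 0.52, and the immunoproteasome subunits PSMB8 by 0.72 and PSMB9 by 0.66. B2M, the light chain of every class I molecule, instead fell by 0.32, and PSME2, a proteasome activator subunit, by 0.53. Of 11 class II members, 5 were higher and 1 lower: HLA-DRA rose by 1.15, HLA-DPA1 by 1.11 and the invariant chain CD74 by 0.84, while HLA-DRB1 was detected on no HS array and was at least 1.53-fold lower.

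Promoters of both groups were compared, since interferon response genes were mostly lower and class I genes more often higher. The window was 250 bases before to 50 bases after the transcription start of RefSeq (GRCh38.p14), and the motif searched was the core of the interferon-stimulated response element, that is GAAA, any 2 bases and GAAA again, on both strands. Of 35116 promoters, 3.57% held it. Of the interferon response genes called lower, 22 of the 29 with a promoter in the table held it, and of those not called, 4 of 7. Of the class I genes called lower, 5 of 5 held it, among them B2M and PSME2, and of those called higher, 4 of 6, among them HLA-F and TAP2. The letters were thus found in members that fell and in members that rose. The 200 bases before the start are printed for 2 of each, 5′ to 3′ on the gene's strand, with the motif in capitals (a TTTC pair where it lies on the other strand). IFIT1, an interferon-induced RNA-binding protein and the first of them, fell by 2.50. Overlapping or adjacent matches run together in ISG15.
IFIT1, chr10:89392423-89392622, plus strand: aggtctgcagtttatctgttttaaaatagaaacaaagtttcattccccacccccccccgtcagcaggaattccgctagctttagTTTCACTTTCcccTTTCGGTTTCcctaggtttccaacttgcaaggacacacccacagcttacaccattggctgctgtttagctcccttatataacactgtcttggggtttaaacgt
ISG15, chr1:1013297-1013496, plus strand: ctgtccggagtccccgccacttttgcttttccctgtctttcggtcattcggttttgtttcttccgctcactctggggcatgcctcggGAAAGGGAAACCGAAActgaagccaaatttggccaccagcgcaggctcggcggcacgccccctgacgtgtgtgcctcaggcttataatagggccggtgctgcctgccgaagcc
HLA-F, chr6:29723234-29723433, plus strand: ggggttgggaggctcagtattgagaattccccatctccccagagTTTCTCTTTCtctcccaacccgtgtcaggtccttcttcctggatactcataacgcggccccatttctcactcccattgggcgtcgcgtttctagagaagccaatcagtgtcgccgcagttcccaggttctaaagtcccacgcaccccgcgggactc
TAP2, chr6:32838740-32838939, minus strand: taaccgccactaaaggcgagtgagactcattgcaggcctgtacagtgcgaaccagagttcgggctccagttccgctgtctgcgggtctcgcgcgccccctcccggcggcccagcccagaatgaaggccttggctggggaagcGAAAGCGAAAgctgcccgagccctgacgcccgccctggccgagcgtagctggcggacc

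**Figure D4:**
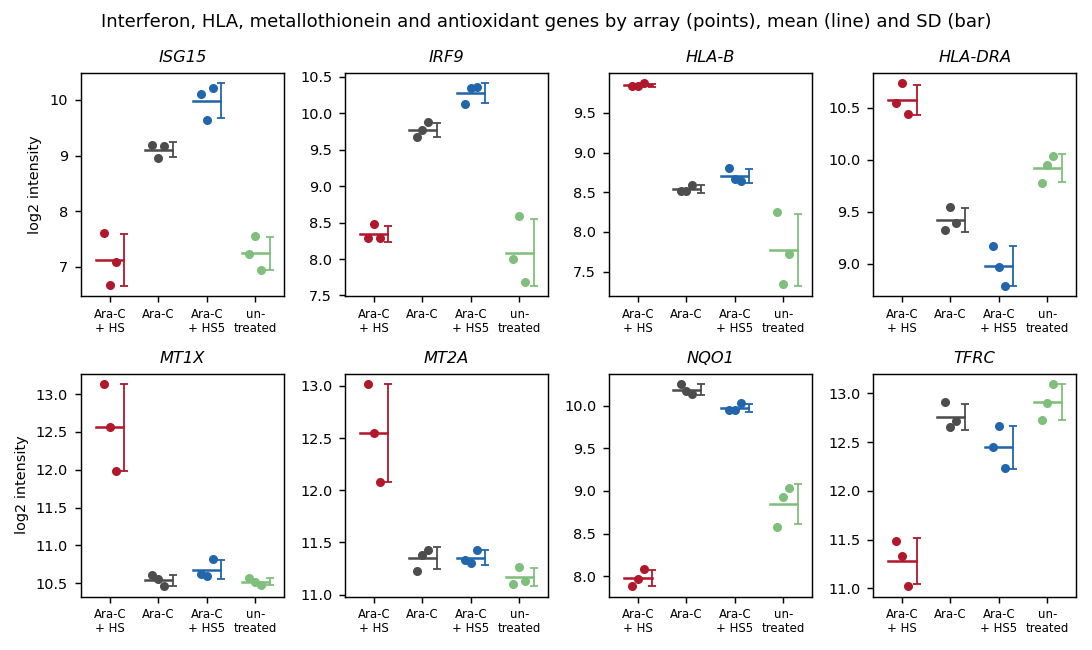
Log2 intensity on each array for ISG15, IRF9, HLA-B, HLA-DRA, MT1X, MT2A, NQO1 and TFRC, with Ara-C with HS, Ara-C, Ara-C with HS5 and untreated cells from left to right; points are arrays, the line is the mean and the bar is the SD of 3 arrays. ISG15 and IRF9 are lower with HS than with Ara-C alone while HLA-B and HLA-DRA are higher, and MT1X and MT2A are highest with HS while NQO1 and TFRC are lowest.

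Of 19 cytokines and chemokines, 10 were lower with HS and 3 higher. Of 17 NF-kB subunits and feedback genes, 5 were lower, none was higher and 12 did not pass the test, which is a smaller share of calls than the 42.1% over all genes. LTA, lymphotoxin alpha, read 6.84, 6.98 and 6.85 with HS, against 8.85, 8.73 and 8.46 with Ara-C alone (3.46-fold lower, limma adjusted p = 3.61e-07). LTB, the membrane-bound partner of LTA, read 8.37, 8.06 and 8.15 with HS and 9.62, 9.66 and 9.70 with Ara-C alone (2.77-fold lower, adjusted p = 5.41e-07). Neither differed from untreated cells at this threshold (adjusted p = 0.475 and 0.654). The neutrophil attractant IL8 fell by 1.86, the monocyte attractant CCL2 by 1.07 and the death ligand TNFSF10 by 1.10. CCL3L3, a macrophage inflammatory chemokine close in sequence to CCL3, read 6.88, 7.28 and 6.24 with HS and 9.59, 9.16 and 9.47 with Ara-C alone, and was 6.08-fold lower (adjusted p = 6.55e-07). Of the feedback inhibitors that NF-kB induces, NFKBIA fell by 0.86 and TNFAIP3 by 0.79. Of 6 tested T and NK cell markers, 5 were lower and none higher. The summed intensity of these 6 markers was 4123 to 5067 with HS and 6468 to 7210 with Ara-C alone. Among the listed markers not tested, CD2, CD3E, CD3G and CD5 were detected on no array. The part of these cells in the result was not tested.

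Of 34 tested genes of actin and membrane remodelling, 24 fell with HS, 2 rose and 8 did not pass the test, with a median difference of -0.77. ANXA1, a calcium-dependent membrane-binding protein, read 8.48, 8.63 and 8.29 with HS, against 11.36, 11.38 and 11.46 with Ara-C alone (7.66-fold lower, SE 0.10 on the log2 scale, limma adjusted p = 3.66e-10). ANXA2, of the same family, read 9.39, 9.42 and 9.33 with HS and 11.66, 11.61 and 11.63 with Ara-C alone (4.77-fold lower), and a second probe of it fell by 1.47. LMNA, which forms the nuclear lamina, read 8.52, 8.54 and 8.32 with HS and 10.23, 10.23 and 10.42 with Ara-C alone (3.56-fold lower, adjusted p = 4.13e-08). In each of the 3 genes the HS arrays lay far below every Ara-C array. Untreated cells read 8.88, 8.94 and 9.03 for ANXA1, above all HS arrays, and 8.56, 8.32 and 8.44 for LMNA, among them. FLNC, an actin crosslinker, fell by 2.20, S100A4 by 1.68 and ANXA5 by 1.56, and the actin-binding protein CNN2 rose by 0.59.

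Several of these genes are also expressed by stromal fibroblasts. Of 15 tested fibroblast markers, 7 were lower with HS, 2 were higher and 6 did not pass the test, with a median difference of -0.09. VIM, an intermediate filament, fell by 0.68, LGALS1 by 0.99 and the matrix protein SPARC by 1.03, whereas the collagen chain COL5A1 rose by 1.03. The summed linear intensity of these 15 markers was 19045 to 21317 with HS and 31135 to 34323 with Ara-C alone. It was thus lower in the cultures to which stroma had been added. Untreated cells, which had no stroma either, gave 15246 to 17575. The part of stromal cells in the result was not tested. The 3 tested of 10 endothelial markers summed to 435 to 538 with HS and 436 to 523 with Ara-C alone, and 6 of the 10 were detected on no array. The 5 tested of 8 adipocyte markers summed to 4131 to 4597 with HS and 3490 to 4097 with Ara-C alone. The 3 tested of 7 osteoblast markers summed to 655 to 917 with HS and 637 to 684 with Ara-C alone. None of the 10 erythroid markers on the array was detected.

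p53 targets and death genes were lower more often than higher. Of 21 p53 targets, 10 fell and 2 rose, and of 26 caspases, death receptors and inhibitors, 8 fell and 2 rose. The shares called were 57.1% and 38.5%, against 42.1% over all genes, so the second list held no more calls than genes at large. TNFRSF10B, the death receptor for TNFSF10, read 8.92, 9.07 and 9.03 with HS, against 9.93, 10.11 and 9.97 with Ara-C alone (2.0-fold lower, limma adjusted p = 4.50e-06), which left it above its untreated values of 8.12, 8.18 and 8.07. PMAIP1, the BH3-only protein NOXA, fell by 0.75, BMF, of the same class, by 0.93 and the executioner caspase CASP6 by 0.83. CCNG1 and ZMAT3, both p53 targets, each rose by 0.57. A second probe of CCNG1 differed by 0.33 and did not pass the limma test (adjusted p = 0.285). Of 17 genes of the BCL2 family, 3 were higher and 2 lower, a share of 29.4% called that is also under the 42.1%. BCL2, which holds mitochondria intact, read 9.91, 9.69 and 9.75 with HS and 9.15, 9.15 and 9.08 with Ara-C alone (1.58-fold higher, adjusted p = 0.000782), below its untreated values of 10.24, 9.95 and 10.14. MCL1, with the same role, read 9.32, 9.38 and 9.13 with HS and 9.45, 9.18 and 9.37 with Ara-C alone, and its arrays overlapped (adjusted p = 0.750).

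Genes that carry, activate or break down cytarabine, or supply competing nucleotides, showed no common direction: 4 of 26 were higher and 8 lower. DCK, the kinase that activates cytarabine, read 10.63, 10.64 and 10.65 with HS and 10.41, 10.40 and 10.48 with Ara-C alone and did not pass the test (1.16-fold, limma adjusted p = 0.137). SLC29A1, the transporter through which cytarabine enters, rose 1.26-fold (adjusted p = 0.0288). That call was lost with a common median (adjusted p = 0.0746), with no detection filter (0.0539) and with arrays of the 2 groups only (0.0538). It was also lost without HS replicate 2 (0.127), without Ara-C replicate 1 (0.0960) and without Ara-C replicate 3 (0.0505). A second probe of SLC29A1 rose by 0.55 (limma adjusted p = 0.00174). CDA, the deaminase that inactivates the drug, read 6.24, 6.66 and 5.61 with HS, the lowest of them not detected, and 7.37, 7.35 and 7.24 with Ara-C alone (2.22-fold lower, adjusted p = 0.00101). NT5C, a nucleotidase that removes phosphate from deoxynucleotides, read 10.35, 10.30 and 10.47 with HS and 9.57, 9.39 and 9.46 with Ara-C alone (1.87-fold higher, adjusted p = 4.88e-06). UPB1, the last enzyme of pyrimidine breakdown, read 7.24, 7.55 and 7.42 with HS and 8.97, 8.76 and 8.77 with Ara-C alone (2.70-fold lower, adjusted p = 0.000398). TK1 fell by 0.77, the ribonucleotide reductase subunit RRM2 by 0.63 and DUT by 0.59.

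DNA replication genes leaned the same way as TK1 and RRM2. Of 38 tested, 17 were lower and 2 higher, with small differences around a median of -0.19. The helicase subunit MCM5 read 9.60, 9.84 and 9.44 with HS and 10.48, 10.41 and 10.47 with Ara-C alone (1.77-fold lower, limma adjusted p = 6.34e-05). CCNE1, the cyclin of S-phase entry, read 8.0, 8.34 and 8.12 with HS and 8.87, 8.89 and 9.09 with Ara-C alone, and was still 1.80-fold above untreated cells. The primase subunit PRIM1 rose by 0.37 and the clamp loader RFC5 by 0.29. Neither mitosis (5 higher and 7 lower of 44) nor checkpoint and repair genes (6 higher and 4 lower of 39) held more calls than the 42.1% over all genes. UBE2C, the ubiquitin-conjugating enzyme of mitotic exit, rose by 0.81.

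Metal and oxidative stress genes moved in opposite directions. Of 33 tested genes, 10 were higher and 15 lower, and 6 of the 7 tested metallothioneins were among the higher. Metallothioneins are small cysteine-rich proteins that bind zinc and copper. MT1X read 13.13, 12.56 and 11.98 with HS, against 10.60, 10.55 and 10.46 with Ara-C alone (4.06-fold higher, SE 0.20 on the log2 scale, limma adjusted p = 7.22e-06). MT2A read 13.02, 12.55 and 12.08 with HS and 11.23, 11.38 and 11.43 with Ara-C alone (2.30-fold higher, adjusted p = 0.000132). Every HS array lay above every Ara-C array for both genes, yet the HS arrays were spread wide. The same array was highest for MT1X, MT2A, MT1A, MT1G, MT1E and MT1H, and the same array lowest. MT1A rose by 1.27, MT1G by 1.16, MT1E by 1.10 and MT1H by 0.64, and MT1F differed by 0.08 (adjusted p = 0.655). Metallothioneins are close in sequence, and their probes may share targets.

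The metallothionein promoters were searched for the core of the metal response element, TGCGCNC, on both strands in the same window as above. It was found in 3 of the 3 metallothioneins with a promoter in the table, in 11 of 21 other members of the list and in 19.97% of all promoters. The 200 bases before the start of the 2 genes described are shown with these letters in capitals.
MT1X, chr16:56682270-56682469, plus strand: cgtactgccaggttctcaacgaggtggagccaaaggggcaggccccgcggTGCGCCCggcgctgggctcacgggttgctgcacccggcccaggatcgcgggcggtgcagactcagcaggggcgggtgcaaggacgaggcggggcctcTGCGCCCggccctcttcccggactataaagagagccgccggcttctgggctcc
MT2A, chr16:56608384-56608583, plus strand: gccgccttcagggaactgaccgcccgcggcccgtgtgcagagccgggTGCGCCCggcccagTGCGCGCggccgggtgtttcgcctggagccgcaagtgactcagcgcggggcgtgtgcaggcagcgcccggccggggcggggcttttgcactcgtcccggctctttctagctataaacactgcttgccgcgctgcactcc

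Several enzymes that counter oxidants ran the other way. Not every enzyme of the list did: TKT rose by 0.88, and GPX4 was also called higher. NQO1, a quinone reductase and standard target of the factor NRF2, read 7.89, 7.97 and 8.08 with HS, against 10.26, 10.17 and 10.14 with Ara-C alone (4.62-fold lower, limma adjusted p = 1.53e-08), and was 1.83-fold lower than in untreated cells. The peroxidase PRDX1 fell by 1.09 and GCLM, of glutathione synthesis, by 0.86. TFRC, the receptor through which cells take up iron, read 11.48, 11.33 and 11.02 with HS and 12.91, 12.65 and 12.71 with Ara-C alone (2.79-fold lower, adjusted p = 5.69e-06), and its HS values were below those of untreated cells as well. Among metal transporters, SLC11A1, a phagosomal metal transporter, read 7.39, 7.58 and 7.15 with HS and was detected on no Ara-C array (at least 3.28-fold higher), and the iron exporter SLC40A1 rose by 0.40.

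Sterol synthesis and uptake, the target genes of the factor SREBP2, were more often lower than higher, with 19 of 28 lower and 5 higher and a median of -0.53. SQLE, squalene epoxidase, read 8.73, 9.08 and 8.62 with HS, against 9.89, 9.88 and 9.77 with Ara-C alone (2.05-fold lower, limma adjusted p = 1.02e-05). SC4MOL, a methyl sterol oxidase, read 8.33, 8.77 and 8.14 with HS and 9.5, 9.56 and 10.07 with Ara-C alone (2.46-fold lower, adjusted p = 5.18e-05). INSIG1, which holds back the maturation of SREBP, fell by 0.65. All HS arrays of SQLE and SC4MOL lay below every Ara-C array, and both genes were also below untreated cells, by 2.19-fold and 2.24-fold. The 5 that rose are not all biosynthetic enzymes: SREBF1, which encodes SREBP1, rose by 0.36 and INSIG2, a retention factor, by 0.56.

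Genes of glycolysis and the hypoxia response were more often higher, with 13 of 37 higher and 3 lower. PFKFB4, which sets the level of a glycolytic activator, read 11.17, 11.33 and 10.56 with HS and 9.60, 9.64 and 9.33 with Ara-C alone (2.82-fold higher, limma adjusted p = 1.92e-05). ENO2, an enolase, read 7.97, 8.06 and 7.12 with HS and 6.5, 6.23 and 6.22 with Ara-C alone (2.65-fold higher, adjusted p = 0.000374). One HS array was lowest for both and for ALDOC, an aldolase that rose by 1.01. SLC2A5, the fructose transporter GLUT5, read 10.89, 11.04 and 10.72 with HS and 8.85, 9.17 and 8.91 with Ara-C alone (3.74-fold higher, adjusted p = 4.18e-08). The angiogenic factor VEGFA rose by 0.94. Central glycolytic enzymes PKM2 and TPI1 fell by 0.60 and 0.52, so the list did not move as one.

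Amino acid and unfolded protein response genes split, with 11 of 35 higher and 10 lower, or 6 and 11 with a common median. Enzymes of amino acid supply were among the higher. CBS, which makes cystathionine, read 9.59, 9.68 and 9.66 with HS and 8.35, 8.54 and 8.32 with Ara-C alone (2.36-fold, limma adjusted p = 1.61e-06), and the mitochondrial serine enzyme SHMT2 rose by 0.78. ASNS, asparagine synthetase, rose by 0.89, and its second probe differed by 0.80 without passing the test (adjusted p = 0.0805). ATF3, a stress-induced factor, fell by 1.27 and the chaperone HSPA5 by 0.33.

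Of 24 immediate early factors, 11 fell with HS, 4 rose and 9 did not pass the test. Among the 4 was EGR1, a zinc finger factor. It read 10.19, 10.73 and 10.28 with HS, against 8.70, 8.60 and 8.44 with Ara-C alone (3.52-fold higher, limma adjusted p = 8.02e-07), above its untreated values of 9.69, 9.54 and 9.61. SPRY1, a feedback inhibitor of receptor tyrosine kinase signalling, rose by 0.85. DUSP5, a phosphatase for ERK, fell by 1.32 and FOS by 0.85. Of 17 Notch genes, 8 were higher and none lower: RFNG, a Fringe enzyme that modifies Notch, read 9.80, 9.51 and 9.60 with HS and 8.50, 8.73 and 8.73 with Ara-C alone (1.98-fold higher, adjusted p = 1.08e-05), NOTCH1 rose by 0.45, and the target HES1 rose by 0.60. HES4, another HES factor, was detected on no Ara-C array and was at least 1.28-fold higher.

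Most lists of housekeeping machinery had small median differences, while single members moved by more. Of 68 subunits of the respiratory chain and ATP synthase, 37 were lower and 7 higher (median -0.28), with NDUFB2 of complex I lower by 0.97 on the log2 scale. Of 30 proteasome subunits, 15 were lower and 1 higher (median -0.25), PSMD2 falling by 0.63, and of 28 heat shock proteins, 13 were lower and none higher, HSPA1B falling by 0.99 and HSP90AA1 by 0.55. Of 55 ribosomal proteins, 15 were higher and 3 lower, and of 45 ribosome biogenesis genes, 11 were higher and 2 lower. That is 32.7% and 28.9% called, smaller shares than the 42.1% over all genes. The counts depended on the scaling, since a common median gave 6 higher and 3 lower ribosomal proteins, and 5 higher and 5 lower biogenesis genes. Within the biogenesis list NOB1 rose by 0.70 and NOLC1 fell by 0.57. Histones were lower for 9 of 16 (median -0.59), HIST1H2BK falling by 1.3, while the linker histone H1F0 rose by 1.06. Of 32 lysosomal genes, 9 were lower, the sialidase NEU1 falling by 1.54, and 5 higher, the glucosidase GAA rising by 1.11. The share of lysosomal genes called, 43.75%, was near the 42.1% over all genes, with a median of -0.12.

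**Figure D5:**
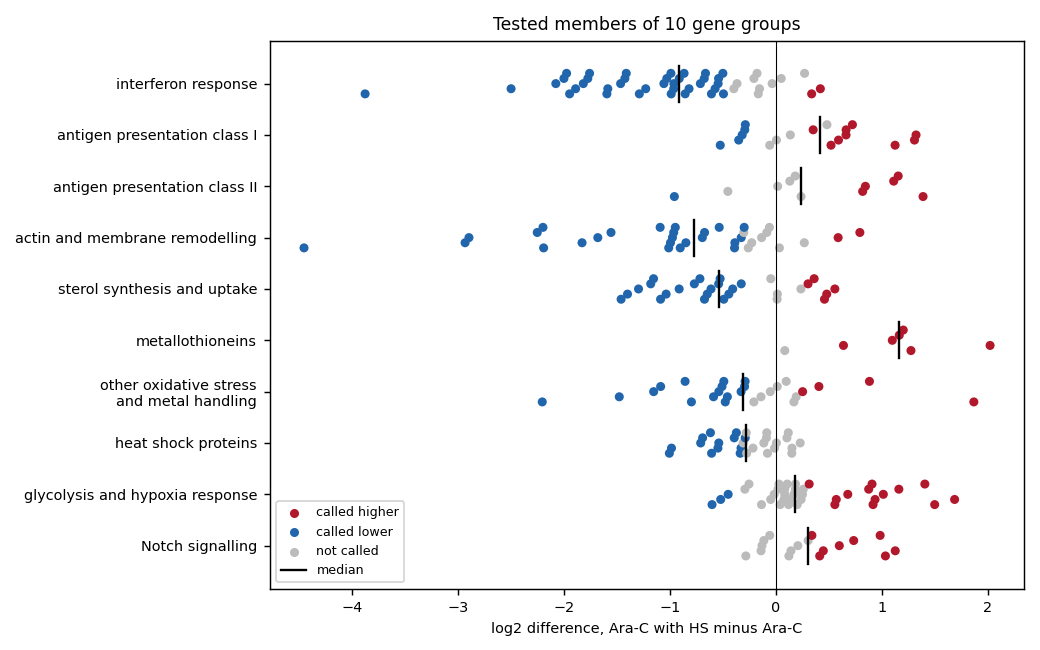
Log2 difference, Ara-C with HS minus Ara-C, of each tested member of 10 gene groups, with the group median as a line; positive values are higher with HS. Interferon response, actin and sterol members lie mostly below 0, and metallothioneins and Notch members mostly above.

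Some genes were detected on only one side. On all 3 HS arrays but no Ara-C array 124 genes were detected, 115 of them called higher, and on all 3 Ara-C arrays but no HS array 91, of which 89 were called lower. Detection on one side only itself favours a call in that direction. The shares called are therefore a description and are not read against those of all genes. Folds for these genes are bounds, set against the lowest level that counted as detected. Among those detected with HS were MME, the precursor antigen CD10, at least 3.73-fold higher, PROM1, the progenitor antigen CD133, at least 2.27-fold, CR1, a complement receptor, at least 2.16-fold, and RENBP, a renin-binding epimerase, at least 2.69-fold. Among those not detected with HS were CD86, the costimulatory ligand, which read 8.64, 8.60 and 8.53 with Ara-C alone and was at least 7.97-fold lower with HS, IL1RN, the interleukin 1 receptor antagonist, at least 5.11-fold lower, SPP1, osteopontin, at least 5.04-fold, S100A8, at least 4.73-fold, and SLPI, a secreted protease inhibitor, at least 4.0-fold. A second probe of CD86 fell by 1.28.

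Among the largest falls measured on both sides were CYP1B1, an aryl hydrocarbon-inducible oxidase, which read 7.38, 6.95 and 6.96 with HS and 10.03, 9.96 and 10.23 with Ara-C alone (7.88-fold lower, limma adjusted p = 4.71e-09), and CD48, a ligand of the receptor CD244, which read 7.03, 7.13 and 7.15 with HS and 9.65, 9.54 and 9.72 with Ara-C alone (5.80-fold lower, adjusted p = 3.67e-10). MMP25, a membrane-anchored protease of leukocytes, read 6.69, 6.65 and 6.65 with HS and 9.17, 9.07 and 9.23 with Ara-C alone (5.62-fold lower, adjusted p = 3.58e-10). GLIPR1 fell by 2.67, VASN fell by 2.69 and KRT86 fell by 2.88. Among the largest rises was DHRS3, a retinaldehyde reductase, which read 8.56, 8.44 and 8.37 with HS and 6.54, 6.71 and 6.54 with Ara-C alone (3.62-fold higher, adjusted p = 1.38e-07). SYTL1, a vesicle-tethering protein, rose by 1.75 and TSPAN32, a tetraspanin of blood cells, by 1.66.

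The same HS arrays were set against the arrays with HS5 stroma, a comparison that shares no array with Ara-C alone but shares the HS arrays with the comparison above. Here 4826 genes (43.2%) differed, 2493 higher with HS (22.3%) and 2333 lower (20.9%), and 640 (5.73%) did so at least 2-fold. Of the 47 interferon response genes, 42 were lower with HS than with HS5 and 2 were higher, with a median of -1.55. OAS2 read 6.37, 6.13 and 6.32 with HS, 8.03, 7.72 and 7.84 with Ara-C alone and 9.56, 9.08 and 9.31 with HS5, so that it was 8.25-fold lower with HS than with HS5 (limma adjusted p = 8.25e-09). Of the 12 pre-B receptor and recombination genes 9 were higher and 1 lower, and of the 34 actin and membrane genes 22 were lower and 2 higher. CSF3R was 3.71-fold higher with HS than with HS5, MT1X 3.68-fold higher, CD38 3.66-fold higher, ANXA1 7.95-fold lower and NQO1 3.99-fold lower. The integrin chain ITGA4, an adhesion receptor for stromal VCAM1, was 2.07-fold higher with HS than with HS5 (adjusted p = 2.25e-05) and 1.34-fold higher than with Ara-C alone. UPB1 with HS did not differ from HS5 at this threshold (difference -0.17, SE 0.24, adjusted p = 0.602), and neither did HES1 (-0.09, SE 0.14, adjusted p = 0.655). The receptor for CXCL12, CXCR4, read 9.31, 9.26 and 8.98 with HS and 8.98, 8.71 and 8.98 with Ara-C alone and did not pass the test (adjusted p = 0.0534), while against HS5 it was 1.5-fold higher (adjusted p = 0.00109).

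Against untreated cells, a comparison that shares the HS arrays with both others, 5041 genes (45.1%) differed, 2600 of them higher with HS (23.3%) and 2441 lower (21.9%), and 686 (6.14%) did so at least 2-fold. Here the scaling mattered more. A common median moved the median difference of all genes to 0.13 and gave 3291 higher and 1077 lower calls. ITGAX was at least 6.5-fold higher than in untreated cells, CSF3R 3.20-fold, SLC2A5 5.11-fold and CD38 3.71-fold higher. TK1 was 3.44-fold and RRM2 3.06-fold higher. Of 45 ribosome biogenesis genes, 32 were lower than in untreated cells and 2 higher (median -0.51), and of 28 sterol genes, 16 were lower and 5 higher. Of 38 replication genes, 16 were higher and 3 lower, and of 18 oxidase and phagocyte receptor genes, 15 were higher and 1 lower. Of the 47 interferon genes, 22 were higher and 3 lower, IFI6, an interferon-induced mitochondrial protein, standing 2.71-fold above untreated cells.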

How the data were processed

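Each deposited array file gives, per the file headers, a mean bead intensity and a detection p-value for every probe. The authors' deposited value table holds log2 values of the same arrays and matched log2 of the quantile-normalized signals to within 0.000167. R 2.9.2 is named per the submitters' processing notes, and what it was used for is not stated in those notes. From the scanner intensities, limma 3.58.1 under R 4.3.3 corrected background with negative controls inferred from the detection p-values (neqc, offset 16), normalized by quantile and took log2. The 14939 probes with detection p under 0.01 on at least 3 of 12 arrays were kept. Of these, 449 had no symbol and 26 had a symbol turned into a date, and both kinds were left out. The brightest kept probe stood for each of 11166 genes. Symbols matched RefSeq for 90.57% of them. A fit of 4 group means over 12 arrays (8 residual degrees of freedom) gave two-sided moderated tests with Benjamini-Hochberg adjustment over all genes, called at 0.05. The number of arrays limits the precision. An exact permutation test of 3 arrays against 3 cannot go below 0.1. The labels call the triplicates independent and do not say whether they were separate cultures, so p-values measure the spread between these samples.

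A gene not detected on any array of a group has only a bound there, set at the lowest detected level of each array. The gene lists and members were chosen with earlier results of these data known. Genes named are the largest changes measured on both sides, those detected on one side, up to 6 called members of each list by adjusted p, every marker, a few fixed genes, and the largest differences from HS5. BTK, LYN, SERPINB1, SPI1, TYROBP, ISG15, IRF9, IRF1, MX2, PSMB9, B2M, PSME2, MT2A, IL8, CCL2, TNFSF10, FLNC, S100A4, CNN2, ZMAT3, DUT, PRIM1, RFC5, MT1A, MT1G, MT1E, MT1H, MT1F, GCLM, GPX4, SLC40A1, SC4MOL, INSIG1, SREBF1, INSIG2, ENO2, ALDOC, PKM2, TPI1, HSPA5, FOS, ITGA4 and IFI6 were named after their values were seen. Alternatives were the authors' table, a common median, an offset of 50, other probe filters, the mean of a gene's probes, 2 groups only, a trended robust fit, a 1.5-fold minimum, a replicate block and leaving out each array. The statistics were tested on simulated data.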

Additional observations from a re-analysis of the deposited data

Results flagged for a closer look

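In 20 of 65 named genes looked at (30.8%), every HS array lay on one side of all Ara-C arrays and every HS5 array on the other, with calls against both groups. Over all 11166 genes tested this held for 491 (4.40%). The 65 genes include those chosen for the largest differences from HS5, so their share is a description and is not read against that of all genes. The limma contrast of HS minus HS5 tested each difference, given here on the log2 scale. HS5 against Ara-C alone was not tested, so higher or lower with HS5 below states only where those arrays lay. Lower with HS and higher with HS5 were CYTL1 (-3.91), S100A8 (-3.84), CD86 (-3.63), CYP1B1 (-3.50), IFIT1 (-3.26), KRT86 (-3.05), OAS3 (-3.05), OAS2 (-3.05), IL18RAP (-3.01), S100A9 (-2.99), IL20RB (-2.98) and MMP25 (-2.65). S100A8 and CD86 were detected on no HS array, so they are at least 9.11-fold and at least 9.84-fold lower with HS than with HS5. Higher with HS and lower with HS5 were MYC (1.03), DHRS9 (2.11), NDRG1 (2.19), DNTT (2.20), SLC2A5 (2.41), DHRS3 (2.41) and VPREB3 (3.31). VPREB3 was detected on no HS5 array and was at least 8.28-fold higher with HS than with HS5. The 1 remaining gene, MME (2.62, at least 3.52-fold higher with HS than with HS5), was detected on no HS5 and no Ara-C array, so for it a move with HS5 relative to Ara-C alone was not measured. In several of the 20 the HS arrays stood much farther from Ara-C alone than the HS5 arrays did: DNTT differed from Ara-C by 1.64 with HS and by -0.56 with HS5, and MMP25 by -2.49 with HS and by 0.16 with HS5. OAS2 was the most even, at -1.59 with HS and 1.46 with HS5.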

How the results depend on the processing

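The count of genes called between Ara-C with HS and Ara-C alone was 4699, and it lay between 3920 and 4226 when single arrays were left out. Against HS5 the count was 4826, with 4232 to 4360 without single arrays, and against untreated cells 5041, with 4309 to 4480. The alternatives that changed a count by more than 1.5 times were those with a minimum of 1.5-fold, which by construction test a narrower claim: 492 genes against Ara-C alone, 589 against HS5 and 642 against untreated cells. No pairing of the arrays by replicate number was seen. Same-numbered arrays of HS and Ara-C deviated from their group means with correlations of 0.0058, 0.024 and -0.014, and not every array correlated best with its own number. Such values cannot tell whether same-numbered samples were set up together. The replicate block gave 4524, 4704 and 4881 genes. Of 287 named genes called against Ara-C alone, 125 kept call and direction under all alternatives run, and 162 lost the call under at least one, 24 of them under one other than the 1.5-fold minimum and 17 when an array was left out. SLC29A1, CSF1R, CD3D, SMAD3, HOXA10, HOXA11, AXIN1, TPM1 and PDGFRB were among the 17. RPL36 reversed: it rose by 0.49 on its brightest probe and fell by 0.22 with the mean of its probes, and the cause was not tested. CXCR4, CTNNB1, CD79B and 6 other named genes that did not pass were called under at least one alternative. Low signals limit what can be said of genes near background, which are given as bounds.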
